A study of Homo sapiens with 6 samples.

Results

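The Polycomb repressive complex 2 (PRC2) and DNA methylation genes described here are EZH1, EZH2, SUZ12, EED, DNMT1, DNMT3A, DNMT3B, UHRF1 and HELLS. They were listed by name and matched through Ensembl identifiers, and all 9 were found among the 60658 genes of each library. RNA was sequenced from 2 human prostate cancer cell lines that grow despite enzalutamide, C4-2B MDVR and CWR22Rv1. Cultures of each line received DMSO as vehicle, 10 µM apoptozole (APO) or 10 µM VER155008 (VER) over 48 h, and both compounds target the chaperone HSP70 at its ATPase domain. C4-2B MDVR cells, a derivative of C4-2B selected for resistance, were maintained under 20 µM enzalutamide and CWR22Rv1 was not, so line and enzalutamide cannot be told apart. The titles and the study name C4-2B MDVR, while the source label of its libraries names LNCaP-C4-2B and all 6 libraries carry the label of a parental line. Each of the 6 conditions had 1 library, so no difference below has a replicate check, an error or a p-value. The values are FPKM, fragments scaled by transcript length and library size, which allows levels of different genes to be set side by side.

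PRC2 places methyl groups on lysine 27 of histone H3, a mark of silenced genes. EZH2 or its paralog EZH1 is the catalytic subunit, SUZ12 holds the complex together and EED binds the mark it makes. DNA methylation is kept through replication by DNMT1, the maintenance methyltransferase, which UHRF1 recruits to newly copied DNA, with help from the chromatin remodeller HELLS. DNMT3A and DNMT3B are the de novo methyltransferases, which methylate sites that were unmethylated before. EZH2 is well known in prostate cancer, where its level rises in advanced disease.

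Relative depth, read from the ratios of low FPKM values, lay between 1.14 and 1.64 in the other 5 libraries when the C4-2B MDVR DMSO library was set to 1. Genes of the mitochondrial chromosome held 14.8% to 16.4% of all FPKM in C4-2B MDVR libraries and 25.7%, 10.4% and 25.7% in CWR22Rv1 libraries with DMSO, APO and VER. All 9 luminal prostate markers were above 1 FPKM in every library, and their summed level was 1561 FPKM in the C4-2B MDVR DMSO library and 922 to 1041 FPKM in the others. Of 3 basal and 3 endothelial markers 0 passed 1 FPKM anywhere, with KRT5, TP63 and PECAM1 listed at 0 throughout, and of 4 immune markers CD68 alone did. Of 4 fibroblast markers 3 passed 1 FPKM in some library, with LUM and DCN doing so in CWR22Rv1 libraries only. The neuroendocrine markers CHGA and SYP were abundant in CWR22Rv1 libraries, where 4 such markers summed to 60.6, 38.7 and 61.9 FPKM with DMSO, APO and VER, against at most 0.917 FPKM in C4-2B MDVR libraries. These lists check the labels, and their part in the results below was not tested. In bulk RNA, fewer cells expressing a gene and less of its RNA per cell cannot be told apart.

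Promoter sequence was examined because several of the genes were lower together and E2F factors are known regulators of genes used in replication. The windows were RefSeq's, on GRCh38.p14, 250 bases before to 50 after each start site, and they covered 17 start sites of the 9 genes. The letters searched on both strands were TTTCCCGC, TTTCGCGC, TTTGCCGC and TTTGGCGC, the core that E2F factors bind. Such letters were in 1164 of 35116 windows (3.31%) and in at least 1 window of 1090 of 27305 genes (3.99%). They were in windows of 6 of the 9 genes. The 6 stretches below, each 110 bases long and written along the gene's strand, show where the letters stand, with every match in capitals.
UHRF1, chr19:4909401-4909510, plus strand: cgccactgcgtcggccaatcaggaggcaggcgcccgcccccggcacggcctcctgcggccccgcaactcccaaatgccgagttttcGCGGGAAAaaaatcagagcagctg
DNMT1, chr19:10194944-10195053, minus strand: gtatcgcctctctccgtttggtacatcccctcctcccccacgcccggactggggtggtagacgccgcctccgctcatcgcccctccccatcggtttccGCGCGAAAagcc
HELLS, chr10:94545688-94545797, plus strand: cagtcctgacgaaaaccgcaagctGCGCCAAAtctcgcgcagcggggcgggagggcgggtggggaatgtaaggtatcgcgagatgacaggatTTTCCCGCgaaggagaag
EZH2, chr7:148884282-148884391, minus strand: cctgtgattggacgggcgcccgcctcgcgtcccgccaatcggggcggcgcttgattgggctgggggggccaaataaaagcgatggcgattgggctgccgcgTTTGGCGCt
EZH1, chr17:42745056-42745165, minus strand: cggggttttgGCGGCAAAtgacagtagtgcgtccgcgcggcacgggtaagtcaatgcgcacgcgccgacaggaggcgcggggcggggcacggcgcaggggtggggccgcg
SUZ12, chr17:31936808-31936917, plus strand: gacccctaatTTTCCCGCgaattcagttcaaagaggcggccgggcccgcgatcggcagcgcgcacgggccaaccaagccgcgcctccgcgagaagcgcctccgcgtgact

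HELLS held 2 matches, the first 76 and the second 8 bases before its start site. The match of UHRF1 began 14 bases before its first start site and that of DNMT1 2 bases before, and the EZH2 match began 1 base after. In EZH1 and SUZ12 the letters lay farther out, 115 and 189 bases before the start. A second start site of UHRF1 had TTTCGCGC 160 bases before it. No windows of EED, DNMT3A or DNMT3B held the letters. The CHR element TTTGAA, known from genes of late cell cycle, was in windows of SUZ12 and DNMT3A alone among the 9 and in 18.2% of all genes. Which start site these cells used was not measured, and a match is not evidence of binding. The part of these letters in the levels of the 9 genes was not tested.

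**Figure D1:**
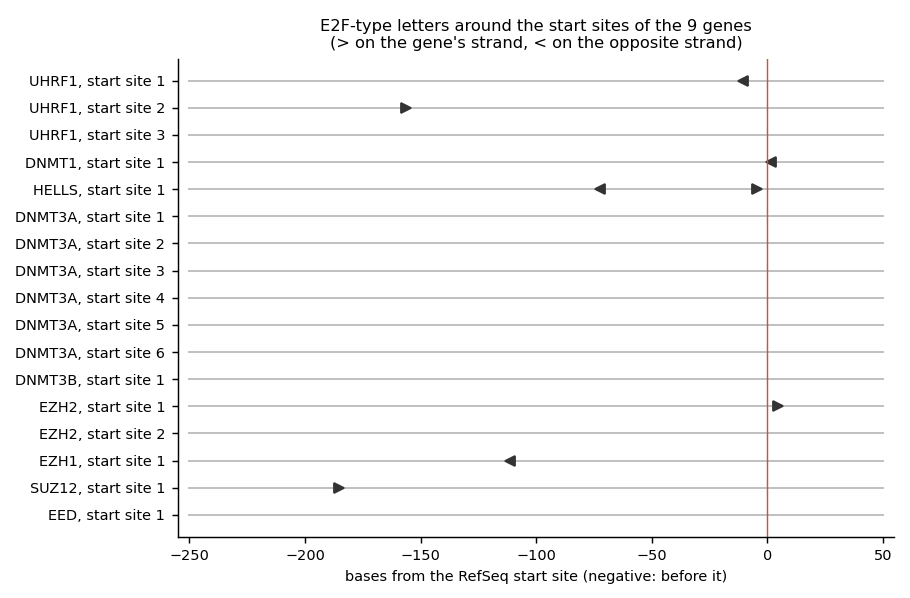
E2F-type letters in the RefSeq windows of the 9 genes, drawn as distance in bases from each of the 17 start sites, with 1 grey line a window and 1 arrowhead a match. The 4 matches nearest to a start site, within 14 bases of it, belong to UHRF1, DNMT1, HELLS and EZH2.

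The first question was what each HSP70 inhibitor did to these transcripts. Most of the 9 genes were lower with inhibitor than with DMSO in both lines, and UHRF1 was the lowest in each of the 4 comparisons. Fold changes are differences of log2(FPKM + 0.1), genes had to be above 0.1 FPKM in at least 1 library of the line, and a gene was counted past 1.2-fold, the threshold of the study. All 9 genes passed the filter in both lines, with 1.32 FPKM as their lowest value.

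With APO in the C4-2B MDVR line 5 genes were lower past 1.2-fold, beside 35.4% of all genes compared, and 0 were higher, beside 37.7%. With VER in these cells 7 were lower, beside 34.9%, and EZH1 alone was higher, beside 35.6%. With APO in the CWR22Rv1 line 7 were lower, beside 39.2%, and 0 were higher, beside 35.6%. With VER in the CWR22Rv1 line 6 were lower, beside 32.3%, and 0 were higher, beside 32.1%. Because many genes passed 1.2-fold in these libraries, a threshold of 2-fold was applied as well.

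Past 2-fold, UHRF1, HELLS and DNMT1 were lower with APO in the C4-2B MDVR line, 3 of 9, beside 13.3% of all genes. EZH2 and DNMT3B joined them with VER, which made 5 of 9 beside 13.3%. With APO in the CWR22Rv1 line the same 3 genes were lower past 2-fold, beside 16.8%, and with VER UHRF1 and DNMT1 were, 2 of 9 beside 8.92%. Taken over genes that exceeded 1 FPKM in some library of the line, as all 9 did, the shares lower past 2-fold were 9.82% and 9.56% in the C4-2B MDVR line and 13.4% and 4.66% in the CWR22Rv1 line with APO and VER. No gene of the 9 was higher past 2-fold in any comparison of an inhibitor with DMSO. The median log2 fold change of the 9 was -0.35 with APO and -1.09 with VER in the C4-2B MDVR line and -0.43 and -0.75 in the CWR22Rv1 line. The medians of all genes compared lay between -0.01 and 0.00. The APO and VER comparisons of a line share its DMSO library.

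**Figure D2:**
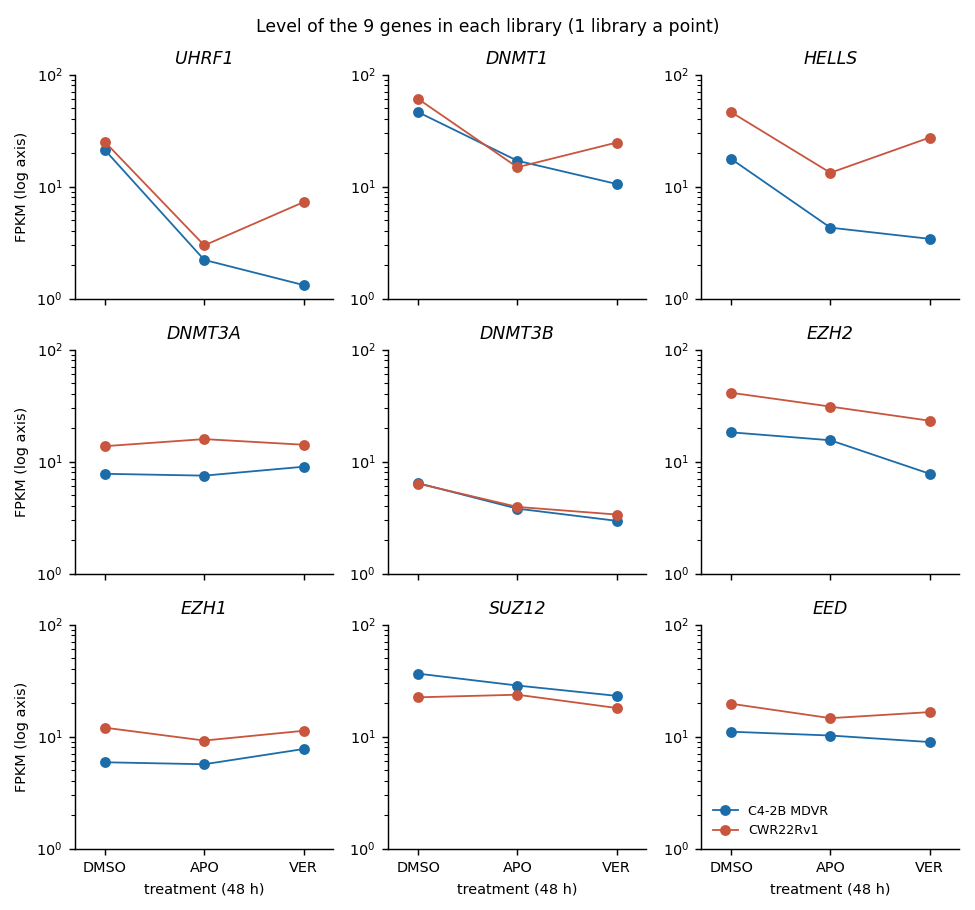
Level of each of the 9 genes in FPKM on a log axis, in the DMSO, APO and VER library of C4-2B MDVR (blue) and CWR22Rv1 (red) cells, with 1 library a point and lines joining libraries of a line. UHRF1 goes from 21.1 and 24.9 FPKM with DMSO to between 1.32 and 7.25 FPKM with an inhibitor, while DNMT3A stays between 7.48 and 15.9 FPKM.

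UHRF1 (ENSG00000276043), which reads hemimethylated DNA behind the replication fork, lies on chromosome 19 of GRCh38 from 4903080 to 4962154. Its level in the C4-2B MDVR line was 21.1 FPKM with DMSO, 2.21 FPKM with APO and 1.32 FPKM with VER. In CWR22Rv1 cells it was 24.9, 2.98 and 7.25 FPKM in the same order. Both DMSO libraries were thus above all 4 inhibitor libraries, and the CWR22Rv1 VER library was the highest of those 4. The log2 fold changes were -3.20 and -3.90 in the C4-2B MDVR line and -3.02 and -1.77 in the CWR22Rv1 line with APO and VER. Only 149 of 20122 genes had a lower value with APO in the C4-2B MDVR line, and 123 did with VER. In CWR22Rv1 cells 256 of 21608 genes had a lower value with APO and 637 with VER. UHRF1 ranked 3 of the 9 genes by level in the C4-2B MDVR DMSO library and 9 in both inhibitor libraries.

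DNMT1 (ENSG00000130816), on chromosome 19 from 10133345 to 10231286, was the most abundant of the 9 genes in both DMSO libraries. It was at 46.2 FPKM with DMSO, 17.0 FPKM with APO and 10.5 FPKM with VER in the C4-2B MDVR line. In CWR22Rv1 cells it was at 60.6, 14.9 and 24.7 FPKM. The lowest DMSO level was therefore above the highest inhibitor level. The log2 fold changes were -1.44 with APO and -2.12 with VER in the C4-2B MDVR line, and -2.02 and -1.29 in the CWR22Rv1 line. Between 3.89% and 7.04% of the genes compared had lower values than DNMT1 in the 4 comparisons. S1PR2, a gene on the same strand that overlaps its annotation, was at 1.53 to 3.22 FPKM.

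HELLS (ENSG00000119969), on chromosome 10 from 94501434 to 94613905, encodes a remodeller that opens nucleosomal DNA to the methyltransferases. It was at 17.6, 4.29 and 3.41 FPKM with DMSO, APO and VER in the C4-2B MDVR line. In CWR22Rv1 cells the levels were 46.1, 13.3 and 27.4 FPKM. Within each line DMSO was the highest library, but the CWR22Rv1 VER library was above the C4-2B MDVR DMSO library. The log2 fold changes were -2.01 and -2.34 in the C4-2B MDVR line and -1.79 and -0.75 in the CWR22Rv1 line. With VER in the CWR22Rv1 line HELLS was thus nearer to the other genes, with 12.9% of genes compared below it, against 3.26%, 3.13% and 5.98% in the other comparisons.

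The de novo methyltransferases differed from each other. DNMT3B (ENSG00000088305), on chromosome 20 from 32762385 to 32809356, had nearly the same level in both lines in each condition. It was at 6.41, 3.80 and 2.96 FPKM with DMSO, APO and VER in the C4-2B MDVR line. The CWR22Rv1 libraries gave 6.36, 3.93 and 3.36 FPKM. Both DMSO libraries were above the 4 others, with log2 fold changes of -0.74 and -1.09 in C4-2B MDVR and -0.68 and -0.90 in the CWR22Rv1 line. DNMT3A (ENSG00000119772), on chromosome 2 from 25227855 to 25342590, was at 7.77, 7.48 and 8.99 FPKM in the C4-2B MDVR line and at 13.7, 15.9 and 14.1 FPKM in the CWR22Rv1 line. It stayed within 1.2-fold of DMSO in all 4 comparisons, at -0.05 and 0.21 in C4-2B MDVR and at 0.21 and 0.04 in the CWR22Rv1 line. Its sign with VER in the CWR22Rv1 line turned, to -0.02, when libraries were rescaled to an equal sum, with or without mitochondrial genes.

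Of the PRC2 core, EZH2 was farthest below DMSO with VER in both lines. With APO SUZ12 was farthest below it in the C4-2B MDVR line and EED, by a small step before EZH2, in the CWR22Rv1 line. EZH2 (ENSG00000106462), the main catalytic subunit of dividing cells, lies on chromosome 7 from 148807383 to 148884321. It was at 18.2 FPKM with DMSO, 15.5 FPKM with APO and 7.78 FPKM with VER in the C4-2B MDVR line. In CWR22Rv1 cells it was at 41.1, 31.0 and 23.2 FPKM, so every CWR22Rv1 library was above every C4-2B MDVR library. The log2 fold changes were -0.23 with APO and -1.22 with VER in the C4-2B MDVR line, and -0.41 and -0.83 in the CWR22Rv1 line. The value with APO in the C4-2B MDVR line was within 1.2-fold, but it was -0.38 with libraries rescaled to the same sum and -0.40 with mitochondrial genes left out of that sum. EZH2P1, an annotated pseudogene, was listed at 0 in every library.

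EZH1 (ENSG00000108799), the paralog that predominates in resting cells, lies on chromosome 17 from 42700275 to 42745049. It was at 5.89, 5.66 and 7.74 FPKM with DMSO, APO and VER in the C4-2B MDVR line and at 12.0, 9.21 and 11.3 FPKM in the CWR22Rv1 line. VER gave the highest C4-2B MDVR library, with a log2 fold change of 0.39, and the APO library of that line was close to DMSO at -0.06. In CWR22Rv1 cells APO gave the lowest library, at -0.38, and VER was within 1.2-fold at -0.09.

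SUZ12 (ENSG00000178691), on chromosome 17 from 31937018 to 32001045, was the 1 gene of the 9 that was lower past 1.2-fold in CWR22Rv1 than in the C4-2B MDVR line with DMSO. It was at 36.4, 28.5 and 23.1 FPKM in the C4-2B MDVR line, or -0.35 for APO and -0.66 for VER as log2 fold change. In CWR22Rv1 cells it was at 22.4, 23.6 and 18.0 FPKM, or 0.08 with APO and -0.32 with VER. The value with APO in the CWR22Rv1 line turned to -0.08 when libraries were set to the same sum outside the mitochondrial chromosome. SUZ12P1, a transcribed partial copy on the same chromosome that could share reads with it, was at 5.21 to 5.42 FPKM in C4-2B MDVR libraries and at 12.6, 4.69 and 13.1 FPKM in CWR22Rv1 libraries with DMSO, APO and VER. The sum of both genes in the CWR22Rv1 line was 35.0 FPKM with DMSO, 28.3 FPKM with APO and 31.1 FPKM with VER. These sums gave -0.31 and -0.17 against DMSO on the log2 scale. With the sum the sign with APO in that line turned, and the value with VER fell within 1.2-fold. The sum with DMSO was 41.6 FPKM in the C4-2B MDVR line, so the difference between the lines was within 1.2-fold too. Whether reads were shared between the gene and its copy was not tested.

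EED (ENSG00000074266), on chromosome 11 from 86244544 to 86278813, was at 11.0, 10.2 and 8.93 FPKM in the C4-2B MDVR line and at 19.6, 14.6 and 16.5 FPKM in the CWR22Rv1 line. The DMSO library was the highest of each line. The log2 fold changes were -0.11 and -0.30 in C4-2B MDVR and -0.43 and -0.25 in the CWR22Rv1 line with APO and VER. The values of -0.11 and -0.25 passed 1.2-fold, at -0.27 and -0.31, with libraries set to the same sum outside the mitochondrial chromosome.

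**Figure D3:**
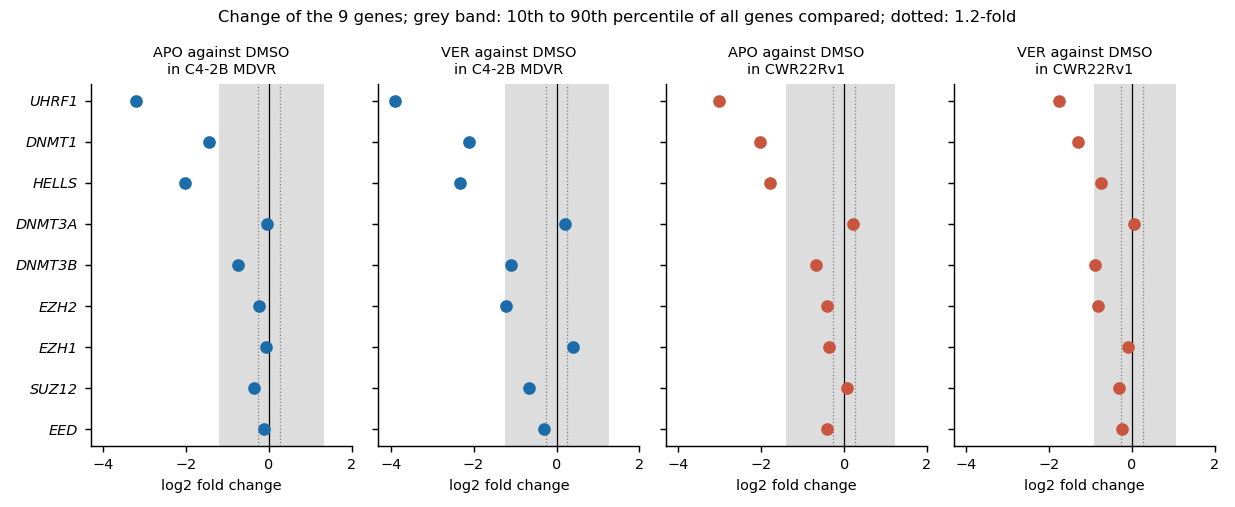
Log2 fold change of each of the 9 genes against DMSO of the same line, 1 panel a comparison, with the 10th to 90th percentile of all genes compared as a grey band and 1.2-fold as dotted lines. UHRF1 and DNMT1 lie left of the band in all 4 panels, and HELLS lies in it with VER in the CWR22Rv1 line, at -0.75.

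The paralogs thus came nearer to each other, or farther apart, with treatment. EZH2 was 3.09 times EZH1 with DMSO in the C4-2B MDVR line, 2.74 times with APO and 1.01 times with VER. In CWR22Rv1 cells the ratios were 3.43, 3.36 and 2.06. EZH1 made up 24.4% of the summed EZH1 and EZH2 FPKM in the C4-2B MDVR DMSO library and 49.9% in its VER library, and in the CWR22Rv1 line it went from 22.6% to 32.7%. The sum itself went from 24.1 to 15.5 FPKM with VER in the C4-2B MDVR line and from 53.1 to 34.4 FPKM in the CWR22Rv1 line.

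Among the methyltransferases, DNMT3B was 0.82 times DNMT3A with DMSO in the C4-2B MDVR line and 0.51 and 0.33 times with APO and VER. In CWR22Rv1 cells the ratios were 0.46, 0.25 and 0.24. DNMT1 held 76.5% of the summed FPKM of the 3 DNMT genes with DMSO in the C4-2B MDVR line, 60.1% with APO and 46.9% with VER. Its share in the CWR22Rv1 line was 75.1%, 42.9% and 58.5%, and with APO there DNMT3A was above DNMT1. The sum of the 3 genes was 60.3, 28.3 and 22.5 FPKM in the C4-2B MDVR line and 80.7, 34.7 and 42.2 FPKM in the CWR22Rv1 line. UHRF1 was 1.30 times its paralog UHRF2 with DMSO in the C4-2B MDVR line and 0.14 and 0.09 times with APO and VER, and in the CWR22Rv1 line it was 1.14, 0.19 and 0.32 times. UHRF2 itself stayed between 14.4 and 22.7 FPKM over the 6 libraries.

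**Figure D4:**
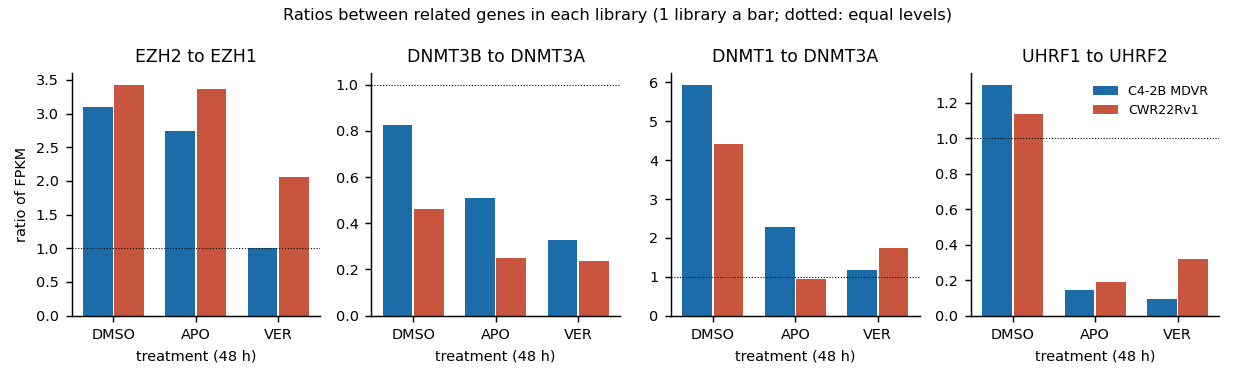
Ratio of FPKM between related genes in the DMSO, APO and VER library of C4-2B MDVR (blue) and CWR22Rv1 (red) cells, 1 library a bar, with a dotted line at equal levels. EZH2 to EZH1 is 1.01 in the C4-2B MDVR VER library, and DNMT1 to DNMT3A falls under the line with APO in the CWR22Rv1 line, at 0.94.

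VER and APO were compared at the same dose and time without use of the DMSO libraries. In C4-2B MDVR cells EZH2 was 7.78 FPKM with VER against 15.5 FPKM with APO, a log2 difference of -0.98 for VER minus APO. DNMT1 at -0.68 and UHRF1 at -0.70 were also lower with VER, and EZH1 was higher at 0.45. In CWR22Rv1 cells the maintenance genes went the other way, with UHRF1 higher with VER by 1.25, HELLS by 1.04 and DNMT1 by 0.73. EZH2 was lower with VER there too, at -0.42. SUZ12 was lower with VER in both lines, at -0.30 and -0.39, as was DNMT3B, at -0.35 and -0.22, the last within 1.2-fold. EZH1 was higher in the CWR22Rv1 line too, at 0.29. The differences for EZH2, SUZ12, DNMT3B and EZH1 were thus in the same direction in both lines. With the same sum, SUZ12 and DNMT3B in C4-2B MDVR and EZH1 in CWR22Rv1 fell within 1.2-fold. Those for UHRF1, DNMT1 and HELLS were in opposite directions between lines. EED, at -0.19 and 0.18, and DNMT3A, at 0.26 and -0.17, also had opposite signs in C4-2B MDVR and CWR22Rv1, all within 1.2-fold. DNMT3A in C4-2B MDVR passed 1.2-fold under each rescaling, at 0.28 to 0.44. With the same sum DNMT3A in CWR22Rv1 passed it too, at -0.35, and the sign of EED there turned. HELLS in the C4-2B MDVR line was at -0.32, and at -0.18 or -0.15, within 1.2-fold, with libraries rescaled to an equal sum with or without mitochondrial genes. No difference between the compounds could be tested with 1 library each.

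With DMSO, 6 of the 9 genes were higher past 1.2-fold in CWR22Rv1 than in the C4-2B MDVR line, beside 43.2% of all genes compared, and SUZ12 was lower, beside 39.2%. The largest log2 differences, CWR22Rv1 minus C4-2B MDVR, were 1.38 for HELLS, 1.17 for EZH2 and 1.01 for EZH1. EED and DNMT3A followed at 0.82 and 0.81, and DNMT1 at 0.39. UHRF1 at 0.24 and DNMT3B at -0.01 were within 1.2-fold, and SUZ12 was at -0.70. Summed with its copy SUZ12P1, SUZ12 was at 41.6 FPKM in C4-2B MDVR and 35.0 FPKM in CWR22Rv1, within 1.2-fold. In C4-2B MDVR cells the order of levels was DNMT1, SUZ12, UHRF1, EZH2, HELLS, EED, DNMT3A, DNMT3B and EZH1. In CWR22Rv1 cells it was DNMT1, HELLS, EZH2, UHRF1, SUZ12, EED, DNMT3A, EZH1 and DNMT3B. There was no spread over replicates by which neighbours in these orders could be told apart.

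Counts of related lists are to be read against the shares of all genes past 1.2-fold given above, which were 35.4%, 34.9%, 39.2% and 32.3% lower and 37.7%, 35.6%, 35.6% and 32.1% higher with APO and VER in the C4-2B MDVR line and then in the CWR22Rv1 line. The partners of DNA methylation were examined as a list of 9 genes, of which 8 passed the filter in each line and DNMT3L, a germ cell cofactor, was listed at 0 in every library. Past 1.2-fold, 7 of the 8 were lower with APO and 7 with VER in the C4-2B MDVR line, and 6 and 6 in the CWR22Rv1 line. The 1 gene higher past 1.2-fold was CDCA7L with APO in the CWR22Rv1 line, at 1.03, from 1.13 to 2.42 FPKM. The list had median log2 fold changes of -1.24, -1.13, -1.05 and -0.41 in the order of APO and VER in C4-2B MDVR and APO and VER in the CWR22Rv1 line. CDCA7, which activates HELLS, was at 12.3, 2.15 and 2.07 FPKM in the C4-2B MDVR line and at 20.0, 5.35 and 11.8 FPKM in the CWR22Rv1 line with DMSO, APO and VER. HELLS stood at 1.44 to 2.00 times CDCA7 in C4-2B MDVR and at 2.3 to 2.5 times in CWR22Rv1 libraries, so the ratio moved less than either gene. PCLAF, a partner of PCNA at the fork, had log2 fold changes of -1.39 and -2.42 in C4-2B MDVR and -1.60 and -0.97 in the CWR22Rv1 line. PCNA, the sliding clamp that brings DNMT1 to replicating DNA, had -1.61, -1.28, -1.55 and -0.58. ZBTB24, a transcription factor that drives CDCA7, was lower as well, at -1.20, -0.98, -0.54 and -0.47.

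Proliferation genes were lower with the inhibitors, and UHRF1, DNMT1, HELLS and DNMT3B were lower past 1.2-fold in all 4 comparisons. EZH2 and EED were below DMSO in all 4 as well, but past 1.2-fold only in some. DNMT3A stayed within 1.2-fold throughout. Of a list of 22, all 22 were lower past 1.2-fold with APO and with VER in the C4-2B MDVR line, and 21 and 22 were in the CWR22Rv1 line. The list had medians of -1.65 and -2.74 in C4-2B MDVR and -1.34 and -1.11 in the CWR22Rv1 line. MKI67, a marker of cycling cells, was at 23.4, 6.86 and 1.5 FPKM in the C4-2B MDVR line and at 27.4, 8.64 and 10.1 FPKM in the CWR22Rv1 line. MCM5, a subunit of the replicative helicase, had log2 fold changes of -1.66, -2.20, -1.73 and -1.27, and was among the 3 genes nearest to DNMT1 described below. RRM2, of nucleotide reduction, had -2.43, -4.81, -1.80 and -1.80, and AURKB, a mitotic kinase, had -1.78, -3.66, -1.29 and -1.37. EZH1 with VER in the C4-2B MDVR line, at 0.39, and SUZ12 with APO in the CWR22Rv1 line, at 0.08, were not lower. The part of proliferation in the levels of the 9 genes was not tested.

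Of 10 genes listed as accessory subunits of PRC2, 9 passed the filter in the C4-2B MDVR line. With either inhibitor 6 were lower and 1 higher past 1.2-fold there. In CWR22Rv1 cells all 10 passed, with 6 lower and 4 higher with APO and 4 lower and 2 higher with VER. Both lower counts in CWR22Rv1 include EZHIP, an inhibitor of PRC2, which was low, at 0.67, 0.30 and 0.12 FPKM with DMSO, APO and VER. PHF19, which brings PRC2 to chromatin, was at 5.90, 1.59 and 1.53 FPKM in the C4-2B MDVR line and at 10.2, 3.39 and 5.36 FPKM in the CWR22Rv1 line with DMSO, APO and VER. Its paralog PHF1 went the other way, at 9.54 FPKM with DMSO against 17.4 and 15.2 FPKM in the C4-2B MDVR line, and at 28.6 against 37.3 and 34.8 FPKM in the CWR22Rv1 line. EPOP, another accessory subunit, had log2 fold changes of -1.03, -1.60, -0.89 and -1.0. RBBP7, a histone-binding subunit, had -0.77, -0.88, -0.54 and -0.51.

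PRC1 is the complex that ubiquitinates histone H2A and reads the PRC2 mark. Of 20 subunits, 8 were lower and 5 higher past 1.2-fold with APO in the C4-2B MDVR line, and 10 lower and 5 higher with VER. In CWR22Rv1 cells 6 were lower and 11 higher with APO, and 7 lower and 1 higher with VER. With APO in the C4-2B MDVR line these counts are near or below the shares of all genes, 35.4% lower and 37.7% higher, and nothing particular to the list is read from them. CBX2, a reader of the mark, was the lowest of the named subunits at -1.74, -1.51, -1.86 and -1.01. KDM2B, which brings PRC1 to unmethylated CpG islands, had -0.52, -0.64, -0.96 and -0.54. PHC3 had -1.06, -0.80, -0.34 and -0.33.

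Other enzymes and readers of these marks were examined as lists too. Of 7 demethylases of the PRC2 mark and methyltransferases of lysine 36, 5 were lower with APO and 4 with VER past 1.2-fold in the C4-2B MDVR line, and 2 and 1 in the CWR22Rv1 line. Higher were 1 and 1 in the first line and 3 and 0 in the second, where the median with APO was 0.20. NSD2 alone was lower in all 4 comparisons, at -0.35, -0.79, -0.44 and -0.62. KDM6A, a demethylase, was at 61.5 FPKM with DMSO in C4-2B MDVR and 7.97 FPKM in the CWR22Rv1 line, a difference between lines larger than that of any of the 9 genes. Of 6 TET and base excision genes, 3 were lower past 1.2-fold with APO and 3 with VER in the C4-2B MDVR line, and 1 and 2 in the CWR22Rv1 line, with TET3 at -0.99, -0.63, -0.19 and -0.54. In each line 1 of these genes was higher with APO and 0 were with VER. Of 7 genes listed as readers of methylated CpG, 3, 2, 1 and 2 were lower and 2, 1, 3 and 1 higher past 1.2-fold in the order above. ZBTB38 was higher in all 4, at 0.70, 0.76, 0.95 and 0.65, and MBD3 lower in all 4, at -0.50, -0.45, -0.72 and -0.33. Of 6 methyltransferases of histone H3 lysine 9, 4 and 5 were lower past 1.2-fold with APO and VER in the C4-2B MDVR line and 4 and 4 in the CWR22Rv1 line. Higher were 0 and 1 in the first line and 1 and 0 in the second. EHMT1 had -0.44, -0.64, -0.47 and -0.97, and SUV39H1 had -0.88, -1.49, -0.43 and -0.52. Of 5 genes of methyl donor supply, 2 were higher and 1 lower with APO and 1 higher and 1 lower with VER in the C4-2B MDVR line, against 3 and 1 with APO and 0 and 0 with VER in the other line. MAT2A, which makes the methyl donor S-adenosylmethionine, had -0.48, -0.43, -1.24 and -0.23, the last within 1.2-fold. AHCYL2 of the same list had 0.99, 1.16, 0.70 and 0.22, again with the last within it.

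**Figure D5:**
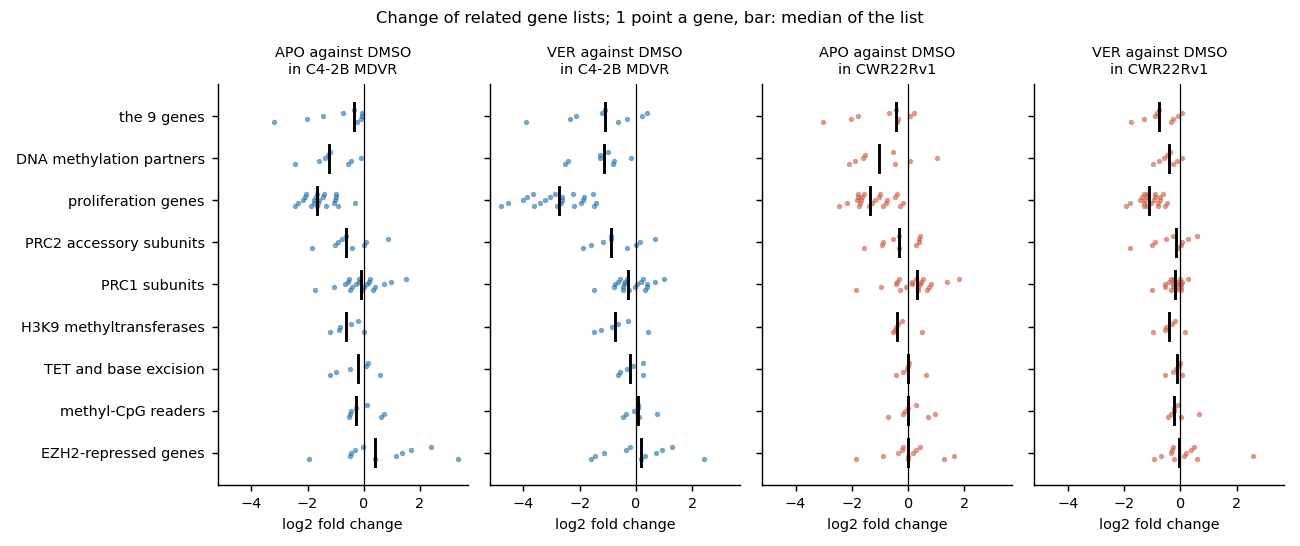
Log2 fold change against DMSO of the 9 genes and of 8 related lists, 1 point a gene that passed the filter and a black bar at the median of each list, 1 panel a comparison. The proliferation genes have the lowest median in each panel, between -2.74 and -1.11, and the DNA methylation partners lie between -1.24 and -0.41.

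Genes that PRC2 or DNA methylation is known to silence were counted in the same way. Of 13 genes known as repressed by EZH2 in prostate cancer, 11 passed the filter in the C4-2B MDVR line, where 6 were higher and 4 lower past 1.2-fold with APO and 5 higher and 4 lower with VER. Of the 12 that passed in the CWR22Rv1 line, 4 were higher and 3 lower with APO, and 4 higher and 4 lower with VER. CDKN2B, a cell cycle inhibitor, was at 0.25, 3.43 and 1.75 FPKM in the C4-2B MDVR line and at 1.78, 5.71 and 2.52 FPKM in the CWR22Rv1 line with DMSO, APO and VER. KLF2, a transcription factor, was higher in all 4 comparisons, at 1.15, 1.28, 0.41 and 0.61. PEBP1 had -0.49, -0.36, -0.38 and -0.24, the last within 1.2-fold, and TIMP2 had -0.47, -0.22, -1.87 and -0.29, of which -0.22 was within it. The list had medians of 0.40, 0.19, 0.00 and -0.06. The 4 of 11 lower in the C4-2B MDVR line stand beside 35.4% and 34.9% of all genes, and the 6 and 5 higher beside 37.7% and 35.6%.

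Of 9 genes whose promoters are often methylated in prostate cancer, 7 passed the filter in the C4-2B MDVR line, with 2 higher and 3 lower with APO and the same counts with VER. In CWR22Rv1 cells 8 passed, with 5 higher and 0 lower with APO and 1 higher and 0 lower with VER. MGMT, a DNA repair gene, was at 33.8, 77.2 and 43.4 FPKM in the C4-2B MDVR line and at 0.28 to 0.29 FPKM in the CWR22Rv1 line. GSTP1, the best known of them and chosen here after its values were seen, stayed between 0.83 and 1.15 FPKM in all 6 libraries. Of 11 germline genes known to be silenced by DNA methylation, 5 passed in the C4-2B MDVR line, with 3 higher and 2 lower past 1.2-fold with APO and 3 higher and 1 lower with VER. Every gene counted as higher there was below 1 FPKM in all libraries of the line, with MAGEA4 the most abundant at up to 0.81 FPKM. In CWR22Rv1 cells 7 passed, with 3 higher and 3 lower with APO and 4 higher and 2 lower with VER. MAEL was at 2.04, 6.14 and 4.04 FPKM in the CWR22Rv1 line and at or under 0.03 FPKM in the C4-2B MDVR line, and STK31 was at 0.45, 1.44 and 1.05 FPKM in the CWR22Rv1 line and listed at 0 in the C4-2B MDVR line. MAGEA1 was lower in all 4 comparisons, at -0.69, -0.64, -0.76 and -0.48. It was not silent in these cells, at 31.3 to 60.8 FPKM over all libraries. Nor was MAGEA4 in the CWR22Rv1 line, at 162 to 195 FPKM. Of 14 imprinted genes, 10 passed in C4-2B MDVR and 13 in the CWR22Rv1 line, and with APO 3 were higher and 5 lower in the first line and 7 higher and 4 lower in the second. With VER 2 were higher and 3 lower in C4-2B MDVR and 6 higher and 4 lower in the CWR22Rv1 line. GRB10 was at 80.3, 82.0 and 112.9 FPKM in the C4-2B MDVR line and at 6.10, 53.7 and 13.4 FPKM in the CWR22Rv1 line. PEG10 was lower in all 4 comparisons, at -1.29, -1.55, -0.20 and -0.46, of which -0.20 was within 1.2-fold. Among imprinted genes counted as higher in the CWR22Rv1 line, MEG3, DLK1, MAGEL2 and IGF2 stayed at or below 0.46 FPKM there. Some genes of these lists and of the list repressed by EZH2 were above 0.1 FPKM only in inhibitor libraries. The filter thus favoured counting such genes as higher. Counted as higher in this way were EDNRB, FOXC1, ASZ1, MAGEC2 and IGF2 in the C4-2B MDVR line. In the CWR22Rv1 line they were CCND2, MSMB, SYCP3, MAGEC2, MEG3, DLK1 and MAGEL2. DNA and histone methylation were not measured in these libraries.

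For each of the 9 genes, the 3 genes with the most similar changes were sought in 14172 genes whose mean reached 1 FPKM, by the root mean square difference over the 4 log2 fold changes. DNMT1 was nearest to GINS4, POLD1 and MCM5, all of DNA replication, at 0.12, 0.17 and 0.19. EZH2 was nearest to JPT1, ZNF695 and MIS18A, at 0.12 each. DNMT3B was nearest to PELP1 at 0.04, then PPRC1 at 0.08 and ATXN7L2 at 0.09. HELLS was nearest to AC006111.2 at 0.09, FGFR3 at 0.21 and DDX12P at 0.23. UHRF1 had no close match, with CAMKV at 0.45, HIST1H2BO at 0.50 and the replication factor MCM10 at 0.56. SUZ12 was nearest to HIF1A, MTG1 and SSB at 0.03 to 0.05, EED to MAP4K2, MIF and MRPL51 at 0.03 to 0.05, EZH1 to CHST3, ATP6V0E2-AS1 and OSBP2 at 0.03 to 0.07, and DNMT3A to ZNF12, KCTD13 and MON2 at 0.04 to 0.05.

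Among the 9 themselves, the smallest such difference was 0.30, between EZH2 and DNMT3B, and the largest was 3.18, between DNMT3A and UHRF1. DNMT1 and HELLS differed by 0.43 and UHRF1 from these by 1.37 and 1.26. The paralogs EZH1 and EZH2 differed by 0.89, and DNMT3A and DNMT3B by 0.98. EZH2 was nearer to SUZ12, at 0.45, and to EED, at 0.54, than to EZH1. These values rest on 4 differences from 6 libraries, of which each DMSO library serves 2.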

How the data were processed

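RNA-seq gene values of 6 libraries were used. Per the labels and the study's methods, the authors aligned paired-end reads to GRCh38 with HISAT and ran Cufflinks, and they deposited 1 FPKM value per Ensembl gene, scaled between libraries by Cuffnorm. The study also names StringTie, and versions and annotation release are not given in the sources used here. The study describes a TruSeq kit and the labels a stranded kit of another maker. FPKM keeps no read totals, so counting error is unknown. Symbols came from GENCODE 29 for 57047 of 60658 identifiers, and sequences from RefSeq (GRCh38.p14).

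Fold changes were differences of log2(FPKM + 0.1) for genes that exceeded 0.1 FPKM in any of a line's 3 libraries (for DMSO between lines, in at least 1 of those 2 libraries). Calls were made past 1.2-fold and 2-fold, without a test. Relative depth was the most frequent ratio of values between 0.001 and 0.05 FPKM. The functions were tested on simulated data. From each related list at most 4 genes were named, those with the largest smallest change over the 4 comparisons in 1 direction and a mean of at least 1 FPKM, then those with the highest mean, and not all are printed. The result of 1 gene is not reported here. The members and lists were chosen with earlier results of these data known. Alternatives were pseudocounts of 0.01 and 1, no filter, above 1 FPKM, 3 rescalings, and thresholds of 1.5-fold and 2-fold. The sum of SUZ12 and SUZ12P1 was added after seeing the data. Python 3.11.15, pandas 2.3.3, numpy 2.4.6 and matplotlib 3.10.9 were used.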

Additional observations from a re-analysis of the deposited data

Results flagged for a closer look

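In 3 cases a gene had opposite signs in the 2 lines with the same inhibitor, and the difference was not tested, since each condition has 1 library. SUZ12 with APO was at -0.35 in the C4-2B MDVR line and 0.08 in the CWR22Rv1 line, a difference of -0.43, and the sign in the CWR22Rv1 line turned with the sum that includes SUZ12P1 (-0.31). DNMT3A with APO was at -0.05 and 0.21, a difference of -0.26, and both values were within 1.2-fold. EZH1 with VER was at 0.39 and -0.09, a difference of 0.48, and the second value was within 1.2-fold.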

How the results depend on the processing

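No paired analysis was possible because each condition has 1 library and the labels give no replicate numbers, and for the same reason no replicate could be left out. The counts of genes lower past 1.2-fold, 5 and 7 with APO and VER in the C4-2B MDVR line and 7 and 6 in the CWR22Rv1 line moved with the threshold, by its construction, and with the scaling. With libraries rescaled to the same sum 6 genes were lower with APO in the C4-2B MDVR line, and 7 with mitochondrial genes left out of that sum, and 7 with VER in the CWR22Rv1 line under either. The sum of SUZ12 and SUZ12P1 ended the call of SUZ12 with VER in the CWR22Rv1 line, at -0.17, and turned its sign with APO there. The call of SUZ12 as lower in CWR22Rv1 than in C4-2B MDVR with DMSO ended with this sum too. Past 1.5-fold the count with APO in the CWR22Rv1 line was 4. Past 2-fold the counts were 3 with APO in the C4-2B MDVR line and 3 and 2 with APO and VER in the CWR22Rv1 line. The 1 gene higher with VER in the C4-2B MDVR line, EZH1, was 0 past 1.5-fold and 0 past 2-fold. With libraries rescaled to the same sum, 1 gene was higher with APO in the CWR22Rv1 line, DNMT3A at 0.32. No called change against DMSO of a gene of the 9 changed sign. Of 180 such values over the pseudocounts and rescalings, 171 kept direction and side of 1.2-fold, 6 became larger than 1.2-fold and 3 turned sign within it. Of 90 differences between VER and APO, 75 kept both, 7 became larger and 7 smaller than 1.2-fold and 1 turned sign within it, and of 36 between the lines 34 kept both. Setting libraries to the same sum outside the mitochondrial chromosome moved the median of all genes compared to -0.10 for APO in the C4-2B MDVR line, -0.15 for APO in the CWR22Rv1 line and from 0.05 to 0.18 between the lines, and values under it are relative to that. For VER minus APO it moved from -0.02 to 0.12 in the C4-2B MDVR line, and with the same total sum to -0.13 in the CWR22Rv1 line. The rescaling to a mean library is set within a line and was not run between lines.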
